A study of Mus musculus with 6 samples.

Results

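Shared binding regions of the long non-coding RNA LncMyoD at mouse pseudogenes numbered 1633, of 91164 shared regions under 3000 bp on chromosomes 1 to 19 (1.79%) and of 97493 shared regions in all. A shared region is the union of overlapping peaks of both deposited peak lists, with at least 1 peak from each. Its midpoint had to lie inside, or within 1 kb of, a gene that RefSeq classes as a pseudogene or transcribed pseudogene, and not inside or within 1 kb of a protein-coding or lncRNA gene. Of 2082 regions at a pseudogene, 449 were left out for such a neighbour. In the 1633, the midpoint was inside the pseudogene in 1138 (69.7%) and outside it in 495, and the nearest protein-coding gene was a median of 32648 bp away.

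The data came from ChIRP-seq, in which biotin-labelled DNA probes capture an RNA together with the chromatin it is attached to. The cells were primary C57BL/6 mouse myoblasts kept for 2 days in 2% horse serum in DMEM, labelled as differentiated myotubes. Probes were split into an odd and an even pool, and with input DNA this made 3 kinds of sample in 2 replicates each, 6 in all, with no deletion or other treatment named. Whether the replicates were separate cultures is not stated. There was 1 peak list per replicate, and the labels tie each list to all 3 samples of that replicate, so probe pools and input could not be told apart and there is no n per list. Expression was not measured in the files used here, so muscle markers were not examined.

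LncMyoD lies beside Myod1, which encodes the myogenic factor MyoD, and is known to promote myoblast differentiation. Pseudogenes are gene copies that no longer encode the parent's protein. Processed pseudogenes arose from reverse-transcribed mRNA and are usually short and far from their parent. Duplicated pseudogenes keep introns and often sit in clusters of related genes, such as those of chemosensory receptors or cytochromes P450. Some are transcribed. Because copies resemble each other, short reads from them can be difficult to place.

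Sequence was at hand for a microRNA inside one of these regions and for the promoters of parent genes. The transcribed pseudogene Rnls on chromosome 19, whose name is that of the renalase gene, held 6 regions. The one at chr19:33156761-33157343 covers the hairpin of Mir3970 (chr19:33157112-33157201, plus strand, GRCm38.p6, sequence from RefSeq), shown because no other microRNA gene of the RefSeq table lies under any of the 1633 regions.
Mir3970 hairpin: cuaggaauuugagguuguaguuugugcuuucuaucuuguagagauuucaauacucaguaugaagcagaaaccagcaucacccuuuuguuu
This region had folds of 11.0 and 13.0 in replicates 1 and 2. The strongest region of Rnls, 33372493 to 33374022, had folds of 55.1 and 58.1.

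Among the parents of the 10 strongest pseudogenes named for a parent (described further on), the promoters of 2 overlapped the parent's own best region. The overlap was 237 of 300 bases for Slc39a1 and 92 of 300 for Tubb4b. Both promoters are shown, 250 bases before to 50 after the gene start (GRCm38.p6, RefSeq), with E-boxes in capitals. The E-box, CANNTG, reads alike on both strands and is the motif of basic helix-loop-helix factors such as MyoD.
Slc39a1 promoter, chr3:90247942-90248241, plus strand: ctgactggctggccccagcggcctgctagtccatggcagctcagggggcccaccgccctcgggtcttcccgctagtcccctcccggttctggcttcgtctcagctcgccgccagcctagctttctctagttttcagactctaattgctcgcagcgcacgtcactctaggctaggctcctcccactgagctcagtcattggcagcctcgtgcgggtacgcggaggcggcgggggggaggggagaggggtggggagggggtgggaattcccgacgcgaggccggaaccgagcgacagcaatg
Tubb4b promoter, chr2:25224653-25224952, minus strand: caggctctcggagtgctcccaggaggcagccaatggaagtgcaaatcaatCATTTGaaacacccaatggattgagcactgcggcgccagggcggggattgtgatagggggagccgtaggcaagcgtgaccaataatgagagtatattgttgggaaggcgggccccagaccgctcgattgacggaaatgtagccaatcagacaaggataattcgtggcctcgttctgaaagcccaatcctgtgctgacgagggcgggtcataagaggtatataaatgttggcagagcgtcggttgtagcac
The Slc39a1 promoter held no E-box, and that of Tubb4b held 1, in the part that lies outside the region. Of 32851 promoters of this length, 72.3% held at least 1. The G and C content was 66.7% for Slc39a1 and 53.7% for Tubb4b, against a median of 52.7%.

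Of 9319 pseudogenes on these chromosomes, 6864 had space that the rule could use, and 1184 of them (17.2%, 95% exact binomial interval 16.4 to 18.2%) had a shared region. A region within 1 kb of 2 pseudogenes, which was the case for 32, counts for both here and for the nearest elsewhere. Most held a single region: 931 had 1, 253 had 2 or more and 27 had 5 or more. Intervals for counts and shares cover counting error only. The share was 39.4% of 340 transcribed pseudogenes (34.2 to 44.8%) and 16.1% of the 6524 others (15.2 to 17.0%). Transcribed pseudogenes were longer, with a median of 4116 bp against 937 bp.

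Longer pseudogenes more often had a region. The share was 9.91% of pseudogenes up to 1 kb, 14.5% from 1 to 2 kb, 22.5% from 2 to 5 kb, 42.9% from 5 to 20 kb and 69.6% above 20 kb. In the same classes lncRNA genes gave 13.9, 19.7, 24.3, 40.9 and 75.02%, and protein-coding genes 7.80, 17.99, 30.4, 50.5 and 84.3%. These genes were counted over their whole span. Pseudogenes were counted only outside the space of protein-coding and lncRNA genes, which can lower their share. Within length classes, transcribed and other pseudogenes differed less steadily. Up to 1 kb transcribed pseudogenes gave 12.5% and others 9.87%, from 1 to 2 kb 25.4% and 14.1%, from 2 to 5 kb 19.5% and 22.8%, and from 5 to 20 kb 49.4% and 41.6%, with overlapping intervals in these 4 classes. Above 20 kb transcribed pseudogenes gave 89.7% (52 of 58, interval 78.8 to 96.1%) and others 63.5% (120 of 189, interval 56.2 to 70.4%). Pseudogenes as a whole had a lower share than protein-coding genes (59.7%), whose median length was 17491 bp. In the shortest class the share of pseudogenes (9.91%, interval 8.95 to 10.9%) was above that of protein-coding genes (7.80%, interval 6.44 to 9.34%), but the intervals overlap.

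**Figure D1:**
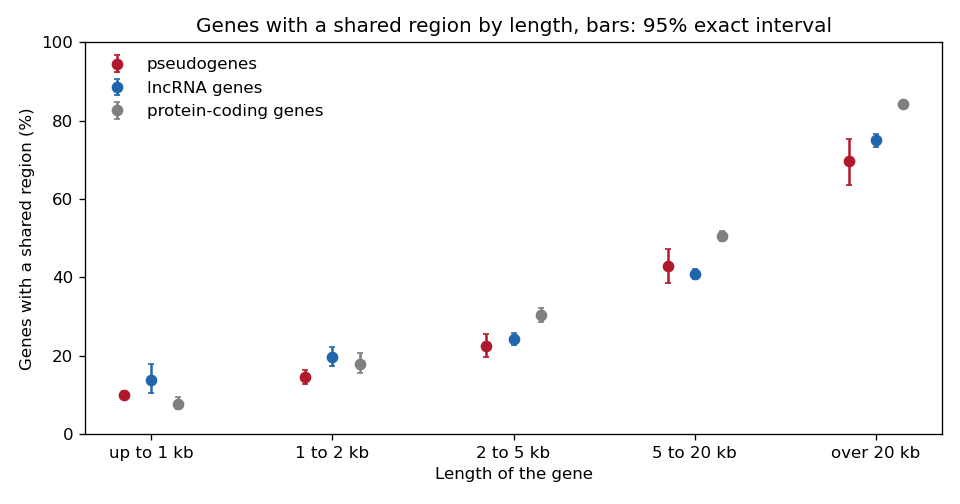
Percentage of genes with a shared LncMyoD region inside or within 1 kb (vertical axis) by gene length (horizontal axis), for pseudogenes (red), lncRNA genes (blue) and protein-coding genes (grey), with 95% exact binomial intervals. In all 3 kinds the share is highest above 20 kb, where it is 69.6% in pseudogenes, and lowest up to 1 kb, where it is 9.91%. Only pseudogenes are counted without the space of protein-coding and lncRNA genes.

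Counted by space rather than by gene, regions were denser at pseudogenes than in the rest of the genome outside protein-coding and lncRNA genes. The 35.6 Mb of pseudogene space held 45.8 regions per Mb (95% exact Poisson interval 43.6 to 48.1), against 34.9 per Mb elsewhere outside genes (34.6 to 35.2), a ratio of 1.31. The space elsewhere ran from the first to the last peak or gene of each chromosome. Assembly gaps and stretches where reads cannot be placed were not taken out, and their part in the ratio was not tested. Density was higher at pseudogenes on 17 of 19 chromosomes, with ratios from 0.916 on chromosome 9 to 1.79 on chromosome 4. On several of the 17 the intervals overlapped, as on chromosome 18 (26.1 to 57.7 against 32.2 to 35.6 per Mb). On others they did not, as on chromosome 4 (53.4 to 73.8 against 34.0 to 36.6 per Mb). The mean over chromosomes was 45.8 ± 8.36 per Mb at pseudogenes and 35.0 ± 2.96 elsewhere (SD over 19 chromosomes, which are not replicates of a condition). Against other space within 50 kb of a pseudogene the ratio was 1.22. With 2 lists and no control list, no test of these differences was made.

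Within the pseudogene space, density was 49.7 per Mb inside the pseudogenes (46.9 to 52.7) and 38.8 per Mb in their 1 kb flanks (35.5 to 42.4). It was 59.7 per Mb around transcribed pseudogenes (52.7 to 67.3) and 44.0 around the others (41.7 to 46.4). For comparison, protein-coding genes with their flanks had 39.7 per Mb and the remaining lncRNA genes 38.4. By length of the pseudogene the density was 41.8 per Mb up to 1 kb, 54.1 from 5 to 20 kb and 42.5 above 20 kb, so density, unlike the share, was not highest in the longest class.

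**Figure D2:**
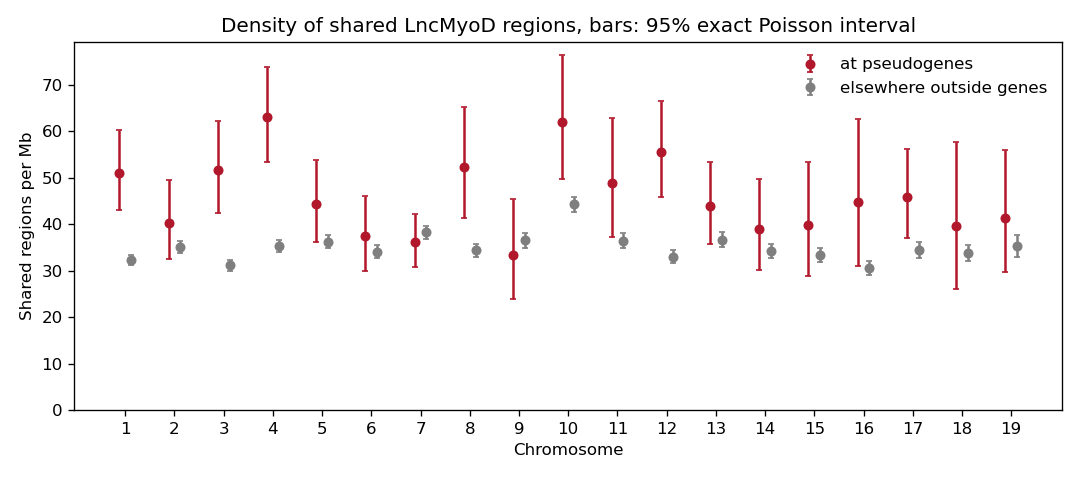
Shared LncMyoD regions per Mb (vertical axis) on each autosome (horizontal axis), at pseudogenes (red) and elsewhere outside protein-coding and lncRNA genes (grey), with 95% exact Poisson intervals. The red point is the higher on 17 of 19 chromosomes; chromosomes 7 and 9 are the exceptions.

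Regions at pseudogenes had a lower median fold than all shared regions in replicate 2, and a smaller share of them was among the highest. Their median fold enrichment at the summit, the authors' value for the peak, was 10.3 in replicate 1 and 10.8 in replicate 2, against 10.7 and 12.01 over all 91164 regions. The 95% interval of the pseudogene median, from binomial order statistics over regions, which are not replicates, was 9.92 to 11.02 in replicate 1, which holds the value over all regions, and 10.2 to 11.7 in replicate 2, which does not. The highest folds were 100 and 103, and the lowest 2.76 and 2.84. Folds of at least 20 in both lists were found in 312 regions at pseudogenes (19.1%, 95% exact binomial interval 17.2 to 21.1%). That interval holds the 20.3% of all regions. By the mean percentile of −log10 q over both lists, 137 (8.39%) were among the highest 10% and 11 (0.67%) among the highest 1% of all regions. At transcribed pseudogenes, 30 of 261 regions (11.5%) were among the highest 10% and 4 (1.53%) among the highest 1%. At other pseudogenes, 107 of 1372 (7.80%) and 7 (0.51%) were. No interval was computed for these shares. The median width was 734 bp at pseudogenes (interval 708 to 767 bp) and 752 bp over all regions.

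Both lists gave similar heights. Of the 1633 regions, 1424 (87.2%) had folds within a factor of 2 of each other, against 85.2% of all regions. Across regions the Spearman correlation of fold between lists was 0.78 at pseudogenes (n = 1633) and 0.76 over all regions. Summits of the lists lay a median of 74 bp apart at pseudogenes and 75 bp apart in other shared regions. Of the peaks whose midpoint lay in pseudogene space, 68.5% of those of replicate 1 (1778 of 2595, interval 66.7 to 70.3%) overlapped a peak of replicate 2, against 67.9% over all its autosomal peaks. For replicate 2 the share was 62.3% (1768 of 2840, interval 60.4 to 64.0%), against 57.7%.

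**Figure D3:**
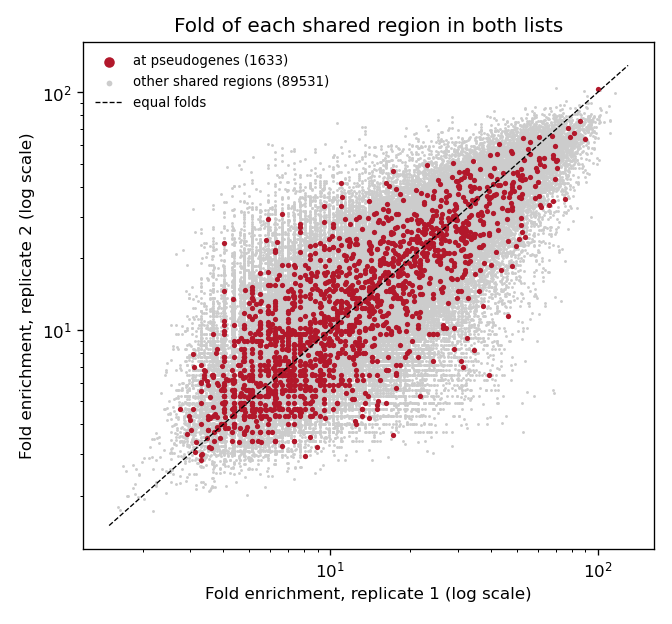
Fold enrichment of each shared region in replicate 1 (horizontal axis) and replicate 2 (vertical axis), both on log scales, for the 1633 regions at pseudogenes (red) and the 89531 others (grey); the dashed line marks equal folds. The red points spread along the same line as the grey ones, up to 100-fold and 103-fold.

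The strongest region at a pseudogene covered Gm17871 on chromosome 7, a pseudogene of 809 bp (84481882 to 84482690). The region ran from 84480534 to 84483481 and took place 8 among all 91164 by mean percentile. Its folds were 100 and 103, from 272 fragments at the summit in replicate 1 (95% exact Poisson interval 241 to 306) and 333 in replicate 2 (298 to 371). Fragment counts were derived here from the deposited fold and p-value of each peak. The next, 593 bp from Gm14121 on chromosome 2 (150498009 to 150499344), had folds of 85.9 and 76.0, and both lie far above the medians of 10.3 and 10.8.

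Other regions among the first 10 lay at a defensin pseudogene, an oocyte homeobox pseudogene and several unnamed copies. Defb44-ps, a transcribed copy of a beta-defensin gene of innate immunity, had folds of 81.9 and 67.6 in a chromosome 1 region (18220986 to 18222814). The region in Gm12209 on chromosome 11 had folds of 89.6 and 63.6. Gm7647 on chromosome 5 had 77.9-fold and 71.0-fold, and Gm3945 on chromosome 14 had 79.0-fold and 65.2-fold. A region 822 bp from Mfsd4b2, a transcribed pseudogene of a solute transporter family, had 60.5-fold and 64.9-fold. Replicate 1 was the higher in 4 of these 5, and only Mfsd4b2 was higher in replicate 2.

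The oocyte homeobox group lay on chromosome 7. Obox3 encodes a homeobox protein of oocytes and has 8 pseudogenes named for it in the gene table, 7 of them on chromosome 7 at lower coordinates than the gene. These 7 held 10 regions. The strongest region of Obox3-ps5 had folds of 56.0 and 61.8, that of Obox3-ps3 70.6 and 52.2, and that of Obox3-ps4 56.2 and 55.3. Lower values were found at Obox3-ps1 (40.0 and 44.5), Obox3-ps6 (51.7 and 29.6) and Obox3-ps2 (48.1 and 18.5), and the weakest was at Obox3-ps7 (8.08 and 5.56). In replicate 1 the summit lay 857, 891, 924 and 819 bp from the lower-coordinate end of Obox3-ps2, Obox3-ps3, Obox3-ps5 and Obox3-ps6, which are 11057 to 14023 bp long. In replicate 2 these distances were 621, 904, 909 and 703 bp, a wider spread. The summit lay 1532 and 1664 bp from that end in Obox3-ps4 and 510 and 637 bp from it in Obox3-ps1. In Obox3-ps7 it lay beyond the opposite end, 537 bp from it in replicate 1 and 769 bp in replicate 2. Obox3 itself had a region of 54.7-fold and 37.4-fold at its lower-coordinate end (15625244 to 15626522).

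Some of the strongest regions stood on a high local background. MACS2 scores a summit as (pileup + 1) over (background + 1), with p from the Poisson distribution, and solving both for each peak gave a whole-number pileup, within 0.05, for 100% of the peaks of both lists. The background so implied was at its lowest, 1.72 fragments in replicate 1 and 2.24 in replicate 2, for 67.0% and 74.1% of all peaks. It was at least 2 times the lowest in both lists for 69 regions at pseudogenes (4.23%, interval 3.30 to 5.32%), against 1.05% of all regions. At lncRNA genes the share was 0.997%, at protein-coding genes 0.81% and outside genes 1.16%. Regions with raised background had a median fold of 5.96 and 6.69 with median pileups of 42 and 48 fragments. Those without it had 10.7 and 11.4 with 30 and 38 fragments. Background divides the pileup in the fold and also defines the group, so this contrast is no separate finding.

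**Figure D4:**
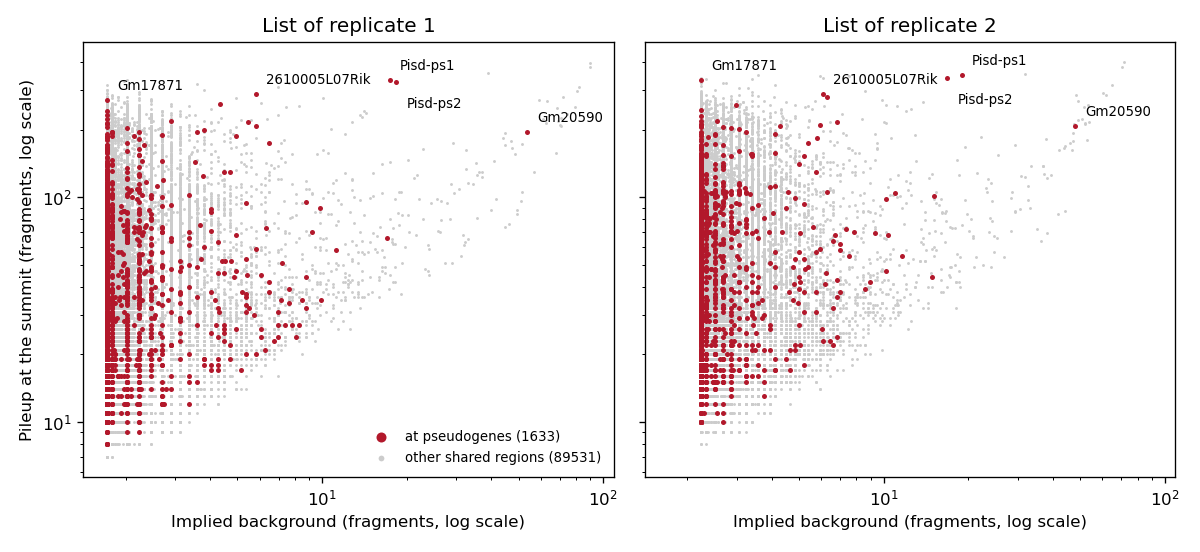
Fragments at the summit (vertical axis) against the implied background (horizontal axis), both on log scales, for each shared region in replicate 1 (left) and replicate 2 (right), at pseudogenes (red) and elsewhere (grey). Most regions stand at the lowest background of 1.72 or 2.24 fragments, while Pisd-ps1, Pisd-ps2 and Gm20590 stand far to the right in both lists.

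The 69 regions of raised background lay at 35 pseudogenes. Transcribed pseudogenes held 32 of the 69 regions, which is 12.3% of their 261 regions, against 2.70% of the 1372 at other pseudogenes. Of the 32, 26 lay at 2610005L07Rik, 6820431F20Rik, Cyp2c53-ps, Pisd-ps1 and Pisd-ps2. Without these 5 pseudogenes, chosen after their values were seen, the transcribed share was 2.60% (6 of 231). Leaving out the pseudogenes with most raised regions lowers the share by construction. None was left out among the others, where Vmn2r-ps16 held 4, so the 2.60% cannot be set against the 2.70%. The part played by several similar copies in the genome, or by input signal, was not tested.

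Pisd-ps1 on chromosome 11 and Pisd-ps2 on chromosome 17, transcribed copies of the mitochondrial phosphatidylserine decarboxylase gene Pisd, gave nearly equal values. The main region of Pisd-ps1 (3126969 to 3128930) had 333 and 351 fragments over a background of 17.5 and 18.99, which gave folds of 18.1 and 17.6. That of Pisd-ps2 (3079486 to 3080924) had 327 and 340 fragments over 18.4 and 16.8, which gave folds of 16.9 and 19.1. In replicate 1 the summits lay 3750 and 3850 bp from the higher-coordinate end of the 2 copies, and in replicate 2 3742 and 3820 bp. Pisd itself, on chromosome 5, had a best region of 69 and 144 fragments over 2.02 and 2.24, with folds of 23.2 and 44.8.

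A similar pair lay on chromosome 8. All 8 regions of 2610005L07Rik and all 7 of 6820431F20Rik, between 20267532 and 20425365, had raised background in both lists. The strongest region of 2610005L07Rik had 289 fragments in each replicate, with folds of 42.5 and 40.9, and that of 6820431F20Rik had 259 and 279 fragments, with folds of 48.7 and 38.5. The other regions of the pair ranged from 23 fragments upward, and the median folds of the 15 regions were 6.29 and 6.98. In replicate 1 both strongest summits lay near the higher-coordinate end of the pseudogene, 769 bp from it in 2610005L07Rik and 583 bp from it in 6820431F20Rik. The region with the highest background was in Gm20590 on chromosome 13 (74528430 to 74530765). It had 195 and 208 fragments over 53.8 and 48.0, and folds of 3.58 and 4.26.

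Among pseudogene families, defined by gene symbol, those of chemosensory receptors were the most numerous. These receptors of the nose and vomeronasal organ form large gene clusters. Of 563 such pseudogenes, 44 had a region (7.82%, interval 5.74 to 10.3%). Their median length was 910 bp, and the interval lies below the 17.2% of all pseudogenes but holds the 9.91% of pseudogenes up to 1 kb. Of 306 olfactory receptor pseudogenes 17 had one, of 137 of vomeronasal type 1 8 did, and of 119 of type 2 19 did, with 60 regions between them. Their median lengths were 909.5, 860 and 3216 bp. The olfactory and type 1 shares were below the 9.91% and that of type 2 above it. The pooled interval therefore does not describe each kind, and no interval was computed for each. The best olfactory one lay 585 bp from Olfr838-ps1 (46.6-fold and 36.4-fold). Vmn2r-ps11, a transcribed pseudogene of 211881 bp, held the 2 best of the family, with folds of 67.9 and 54.7 and of 44.8 and 38.1. Vmn2r-ps17 on chromosome 4 held 11 regions with folds from 3.52 to 37.4 in replicate 1 and from 3.78 to 27.8 in replicate 2. All 4 regions of Vmn2r-ps16, on the same chromosome, had raised background, and the best had folds of 23.9 and 27.0.

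Ribosomal protein pseudogenes, typically processed copies, here with a median length of 555 bp, had regions at 21 of 197 members (10.7%, interval 6.72 to 15.8%), an interval that also holds the 9.91% of pseudogenes up to 1 kb. The best lay 68 bp from Rpl9-ps8 (45.9-fold and 29.3-fold), followed by regions at Rpl31-ps3 (32.0-fold and 23.2-fold) and Rpl31-ps25 (26.9-fold and 21.0-fold). The median folds of the 23 regions were 10.8 and 9.76. Per Mb the ribosomal protein pseudogenes had 42.0 regions and the chemosensory ones 28.6, against 45.8 over all pseudogene space and 34.9 elsewhere outside genes.

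Pseudogenes of serpins and detoxification enzymes had regions at 16 of 40 members (40.0%, interval 24.9 to 56.7%), all of them cytochrome P450 copies. The median length of the 40 was 6288.5 bp, and the interval holds the 42.9% of pseudogenes from 5 to 20 kb. Cytochromes P450 are haem enzymes that oxidise drugs and steroids. Cyp21a2-ps, a copy of the steroid 21-hydroxylase gene, had folds of 39.4 and 38.4. Cyp2d36-ps had 36.7 and 31.5, and Cyp2c53-ps held 8 regions, the best at 37.2-fold and 28.4-fold. Of those 8 regions, 5 had raised background, with folds from 3.01 to 6.53 in replicate 1.

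The remaining families were small, and their intervals spanned the share of all pseudogenes. Cytoskeleton copies had regions at 4 of 9, the best 816 bp from Tubb4b-ps2, a copy of a beta-tubulin gene (75.7-fold and 35.6-fold). That region differed more between replicates than most, with 205 fragments in replicate 1 and 156 over a higher background of 3.40 in replicate 2. Krt74, a keratin gene classed as a pseudogene, had 15.1-fold and 12.7-fold. Chaperone, proteasome and ubiquitin copies had regions at 4 of 13. They were led by Psma5-ps (50.9-fold and 39.8-fold), Psmb6-ps2 (20.9-fold and 21.3-fold) and Psmb5-ps (15.4-fold and 9.57-fold), copies of genes of proteasome subunits.

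Copies of genes of glycolysis and energy metabolism had regions at 5 of 28. The best lay 571 bp from Aldoa-ps3 (63.2-fold and 53.1-fold), a copy of the gene of aldolase A, the glycolytic aldolase of muscle. Lower values were found near Atp5c1-ps (14.3-fold and 17.8-fold), named for a subunit of ATP synthase, and Pgk1-rs7 (5.97-fold and 5.56-fold), related to phosphoglycerate kinase. Translation and RNA-binding copies had regions at 3 of 18, namely Hnrnpa1l2-ps (36.8-fold and 22.2-fold), Eif5al3-ps (17.3-fold and 14.5-fold) and Eif1-ps1 (16.9-fold and 9.57-fold). Immune copies had regions at 2 of 15, the histocompatibility pseudogenes H2-Pb (21.3-fold and 26.2-fold) and H2-Q5 (14.3-fold and 8.53-fold). Among chromatin copies 1 of 14 did, Hmgb1-ps4, with 2 regions (9.55-fold and 11.1-fold at the better). Among cell cycle copies 1 of 4 did, Ccnd3-ps, named for cyclin D3 (14.3-fold and 21.2-fold). Of all 1633 regions, 1471 lay at pseudogenes in none of the 10 families, most of them with Gm numbers.

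**Figure D5:**
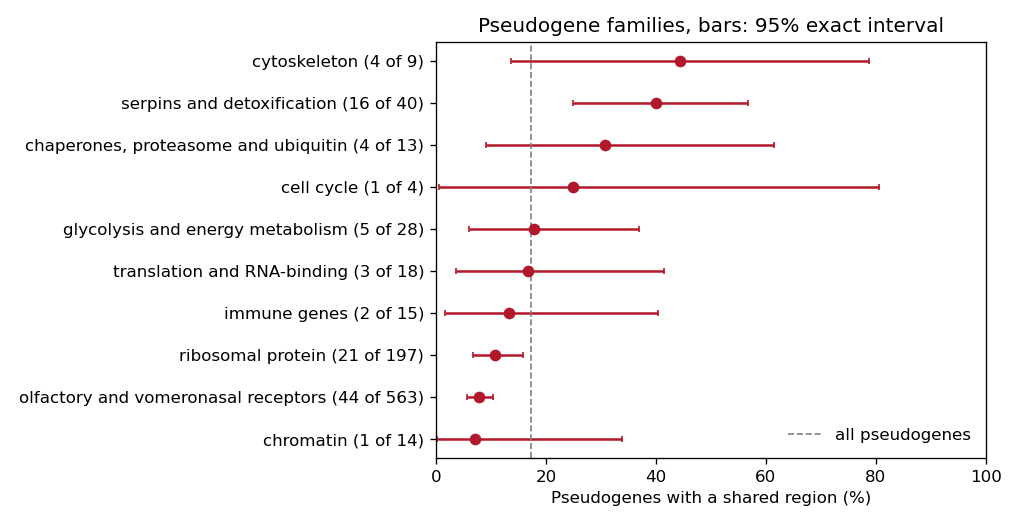
Percentage of pseudogenes with a shared LncMyoD region (horizontal axis) in each family (vertical axis, with counts), with 95% exact binomial intervals; the dashed line marks 17.2% of all pseudogenes. Intervals of chemosensory and ribosomal protein pseudogenes lie below the line and that of serpins and detoxification above it. Median lengths were 910, 555 and 6288.5 bp, and each interval holds the share of all pseudogenes in the length class of that median. Lengths vary within a family, with a median of 3216 bp in type 2 vomeronasal pseudogenes, so matching by the median is rough. Olfactory and type 1 vomeronasal pseudogenes taken alone had shares below the 9.91% of pseudogenes up to 1 kb.

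Where the symbol names the parent, the parent's locus was read as well. Of 1274 usable pseudogenes with such a symbol, 471 had a parent in the gene table, and 88 of these had a region. Of the 69 protein-coding parents of these, 43 (62.3%, interval 49.8 to 73.7%) had a shared region of any width inside or within 1 kb. Of the 211 parents named by pseudogenes without a region, 101 did (47.9%, interval 41.0 to 54.8%), and the intervals overlap. All protein-coding genes, counted with regions under 3000 bp only, gave 59.7%, which the first interval holds and the second lies below. Both sets of parents were shorter, with median lengths of 7641 and 8602 bp against 17491 bp. The 10 strongest pseudogenes of this kind name 6 parents, and all 6 had a region. Slc39a1-ps, a copy of a zinc transporter gene, had 70.2-fold and 51.6-fold, and Slc39a1 38.6-fold and 29.0-fold, at the promoter shown above. Aldoa-ps3 had the folds given above, and Aldoa 30.1-fold and 21.9-fold. Tubb4b had 13.6-fold and 8.65-fold over its start, and Psma5 43.3-fold and 32.4-fold. These 10 were picked for their own height, so their standing against the parent is no finding. Over all 58 pairs with a region at both loci, which name 43 parents, the pseudogene's best fold was above the parent's in both lists in 19, below it in both in 23 and neither in 16. How reads that match both copies were placed is not given in the sources used here.

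Long pseudogenes held runs of regions. Gm18728 on chromosome 1, annotated over 429487 bp, held 23, with folds from 4.41 to 68.3 in replicate 1 and from 4.63 to 52.8 in replicate 2. B230303A05Rik on chromosome 13 held 11, up to 34.9-fold and 36.8-fold, and Gm4036 on chromosome 12 held 9, up to 36.5-fold and 29.1-fold. Vmn2r-ps15 on chromosome 4 had 11 regions within its window. It lies in a stretch of 19 regions at 8 pseudogenes (145575839 to 145844439), in which Znf41-ps, a transcribed zinc-finger pseudogene, had the best region, of 41.6-fold and 37.5-fold. Regions no more than 100000 bp apart formed 7 such groups of 10 or more, with 105 regions in all, while 702 regions stood alone.

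The values next to the limits of the rule were as follows, given as a description. The widest regions kept, at Gm2792 (2990 bp), Slc39a1-ps (2966 bp) and Gm40598 (2960 bp), had folds of 60.6 and 51.9, 70.2 and 51.6, and 15.4 and 23.2. The next wider, left out, at Gm19232 (3034 bp), Gm12206 (3044 bp) and Gm21122 (3112 bp), had 79.6 and 72.9, 93.7 and 88.0, and 37.5 and 43.2. In all 14 regions were left out for width, with median folds of 37.5 and 43.4. By distance, the last kept were at Gm5037 (994 bp, 9.92-fold and 7.32-fold), Gm8877 (990 bp, 5.51-fold and 4.61-fold) and Gm33080 (990 bp, 5.14-fold and 6.14-fold). The first left out were at Gm9710 (1004 bp, 29.7-fold and 41.7-fold), Gm51996 (1006 bp, 59.9-fold and 45.1-fold) and Gm20586 (1009 bp, 20.6-fold and 19.5-fold). The 490 regions more than 1 and up to 2 kb away had median folds of 10.7 and 11.4.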

How the data were processed

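The authors deposited 2 narrowPeak lists, of 157214 and 179630 peaks. Per the submitters' processing notes, Bowtie2 2.3.2, Picard 2.9.2, MACS2 2.1.1 and build mm10 were used. Not given in the sources used here were the parameters, how multiply placed reads were handled, and which libraries served as treatment and control of each call. The deposited fold is a ratio at the summit. The authors gave p-value and q-value of each peak as −log10, and the deposited score is 10 times −log10 q, cut to a whole number. Read totals are not given; pileups solved from fold and p reached 396 and 399 fragments. Each fold and p is used within its list.

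Peaks overlapping by at least 1 bp were joined. Genes came from RefSeq, GRCm38.p6. A region is represented in each list by its peak with the highest −log10 q. Differences between lists can be technical. The members and lists were chosen with earlier results of these data known. Regions named were the 10 strongest, 5 at transcribed pseudogenes, 3 per family, the 5 pseudogenes with most regions, 10 with a parent, and those at the limits; others were named after their values were seen. The code recovered planted values on simulated data. Sequence round the summits, planned for the 5 strongest regions, was not analysed here. Computation ran in Python 3.11.15 with pandas 2.3.3, numpy 2.4.6 and scipy 1.17.1; figures were drawn in matplotlib 3.10.9.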

Additional observations from a re-analysis of the deposited data

How the results depend on the processing

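No paired analysis was possible because the files hold 1 list per replicate and no list per group. Of 96 values under 15 alternatives, 61 stayed within their interval or, for counts, within 1.5 times, and the density ratio stayed above 1 in all 14. The alternatives reuse the same peaks and are not independent of each other. With −log10 q of at least 5 the share of pseudogenes with a region was 16.1%, median folds 11.4 and 12.3, width 775 bp and partnered peaks of replicate 1 70.8%. With the 10000 strongest peaks of each list, 84 regions remained, 7 of them in families, at 1.11% of pseudogenes, with a density ratio of 1.06, folds of 50.3 and 43.5 and a width of 1608 bp. That ratio lies below the 1.25 to 1.38 of the main interval and was given no interval of its own. A higher density at pseudogenes was therefore not shown for the strongest peaks. A reciprocal overlap of 50% gave a share of 13.0%, a width of 686 bp, and partnered peaks of 44.5% and 40.7%. Summits within 200 bp gave 14.5% and 677 bp. Midpoints inside alone gave 11.1% and a ratio of 1.42. A window of 5 kb gave 3481 regions, 380 of them in families, a share of 35.7% and a ratio of 1.23. With either list alone there were 2585 to 2832 regions, 255 to 265 of them in families, at 23.2 to 26.1% of pseudogenes, with widths of 390 to 398 bp and median folds of 8.02 in replicate 1 and 8.34 in replicate 2. Chosen after the data were seen, other space within 50 kb gave a ratio of 1.22, and leaving out regions of raised background 1.27. The causes of these changes were not tested. Stricter thresholds leave fewer peaks by construction, and other windows cover wider or narrower space. Read depth, unknown here, limits what weak peaks can show.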

Other observations

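Pseudogenes outside the rule had fewer regions per Mb than the 45.8 of those within it. The density over the rest of chromosomes X and Y was not computed. A lower level over the whole of these chromosomes therefore cannot be told apart from one at their pseudogenes. On chromosome X, 1009 pseudogenes had 156 regions by the same rule, 33.3 per Mb (95% exact Poisson interval 28.3 to 39.0), with median folds of 12.1 and 11.7. On chromosome Y, 101 pseudogenes had 10 regions, 13.1 per Mb (6.26 to 24.0). Pseudogenes of antigen receptor V segments on the autosomes, which RefSeq lists as a kind of their own, had 3 regions at 153 genes, 8.42 per Mb (1.74 to 24.6), and intact V segments 23 regions at 394 genes, 22.8 per Mb (14.5 to 34.3). The 449 regions at pseudogenes that were left out for a protein-coding or lncRNA gene nearby had median folds of 11.0 and 11.1 and a median width of 807 bp.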
